A study of Mus musculus with 23 samples.

Results

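Toll-like receptors are membrane proteins that bind molecules of microbes and start inflammatory signalling. Of the 754 genes measured in these mouse lungs, 12 encode toll-like receptors, and 5 of them are described here by name: Tlr2, Tlr5, Tlr8, Tlr9 and Tlr13. Tlr2 and Tlr5 were taken as receptors of the cell surface, and Tlr8, Tlr9 and Tlr13 as receptors of endosomes. All 5 passed the filter on low values, and all 5 accessions matched the RefSeq gene table, which puts Tlr2 on chromosome 3, Tlr5 on chromosome 1, Tlr9 on chromosome 9, and Tlr8 and Tlr13 on chromosome X.

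Tlr2 pairs with Tlr1 or Tlr6 and recognises bacterial lipoproteins, and Tlr5 recognises flagellin, the protein of bacterial flagella. Tlr9 recognises DNA rich in unmethylated CpG, Tlr13 recognises bacterial ribosomal RNA, and Tlr8 belongs to the RNA-sensing receptors related to Tlr7. The 5 receptors signal through the adaptor Myd88 to NF-kappa-B and interferon regulatory factors, and in the lung they are found on macrophages, neutrophils, dendritic cells and, for some of them, epithelial cells.

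The left lungs of 23 mice were profiled from total RNA with the mouse myeloid panel of the NanoString nCounter, a method that counts barcoded probes without amplification. Fat-1 mice have a Caenorhabditis elegans desaturase gene, through which omega-6 fatty acids become omega-3, and wild-type (WT) mice lack it. Female and male mice had been instilled 14 times with an extract of organic dust or with phosphate-buffered saline, called dust and saline here. The comparisons ask how repeated dust exposure changed the lung's myeloid genes and whether genotype altered that. There were 7 WT and 6 Fat-1 dust lungs, and 5 WT and 5 Fat-1 saline lungs, extracted on a first day (12 lungs) and a second day (11 lungs). The WT dust lungs came from 4 females and 3 males, and the Fat-1 dust lungs from 3 of each sex. In saline each genotype had 2 females and 3 males. Airways had been lavaged before the left lobe was taken in both exposures, so cells free in the airway had been partly washed out. The sources used here give neither age nor strain background.

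Values are normalized counts, that is, probe counts times a factor of the lung they came from, with a floor of 20. Recovered counts ran from 110453 to 812429 per lung, and the factor from 0.682 to 4.21. A value under 84.26 could not have been seen in the lung with the highest factor, where the floor of 20 counts sits at that level. Groups follow the extract code, and for 3 lungs coded Fat-1 the sample characteristics say WT, with sex also differing for 1 of them, while the title of a further lung coded WT male saline reads WT female dust. Scanner messages on saturation accompanied 2 lungs, Fat-1 male dust 1 and WT male saline 1, both of the second day. Epithelial Cdh1 and Lamp3 and endothelial Cdh5, Tek and Thbd were above the floor in all 23 lungs.

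Dust lungs had more Tlr2, Tlr8, Tlr9 and Tlr13 RNA than saline lungs, and less Tlr5 RNA. Tlr2 was 3.53-fold higher, Tlr13, Tlr9 and Tlr8 followed in that order, and Tlr5 was at 0.686 of the saline level. A gene was called at an adjusted p under 0.05 in limma with Benjamini-Hochberg adjustment over 711 genes. Of all genes tested, 379 were called (53.3%), 308 of them higher (43.3%) and 71 lower (9.99%), so that a rise was common on this panel and a fall less so. With every lung centred on its median gene, 170 genes were higher and 301 lower. Such centring also moves genes at the floor, so some of the 301 rest on floor values. The median of all genes was then at -0.260 in place of 0.257 on the log2 scale, and at 0.120 on a scale of the housekeeping genes. The direction of each of the 5 receptors was the same on all 3 scales.

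Tlr2, the lipoprotein receptor, was at 119.9, 158, 161, 179 and 100.2 normalized counts in the 5 WT saline lungs and at 139, 173, 194, 211 and 137 in the 5 Fat-1 saline lungs. In the 7 WT dust lungs its lowest, median and highest values were 199, 602 and 818, and in the 6 Fat-1 dust lungs 385, 552 and 856. Of the 13 dust lungs, 12 were above every saline lung, and the exception was WT female dust 2 of the second day, at 199. The means were 564 ± 177 in dust (SD, n = 13) and 157 ± 34.0 in saline (n = 10). The log2 difference was 1.82 (SE 0.209, limma adjusted p = 6.72e-06) and 1.30 with median centring.

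Tlr5, the flagellin receptor, was at 84.3, 74.6, 84.0, 65.5 and 49.2 in the WT saline lungs and at 55.9, 77.9, 114, 67.1 and 76.5 in the Fat-1 saline lungs. In WT dust lungs the lowest, median and highest values were 37.9, 48.5 and 70.9, and in Fat-1 dust lungs 20 (the floor), 49.0 and 76.4. Of the dust lungs, 7 of 13 were below every saline lung and the other ones overlapped with them. The log2 difference was -0.54 (SE 0.195, limma adjusted p = 0.0266), from 74.9 ± 17.8 in saline to 52.6 ± 16.7 in dust. These are low values, resting on 22 to 65 counts in the dust lungs above the floor and 26 to 96 in the saline lungs. At the median of 37.5 counts counting error alone is 16.3%. With the highest lung's floor set in every lung the difference was -0.04 (adjusted p = 0.508), since 21 of the 23 values lie under that floor. The call was also lost without WT female saline 1 of the first day (-0.52, adjusted p = 0.0596), without Fat-1 female saline 1 of the second day (-0.48, adjusted p = 0.0731) and without the 2 lungs with the saturation message (-0.52, adjusted p = 0.0594). On the housekeeping scale it was -0.68 (adjusted p = 0.0102) and with median centring -1.06 (adjusted p = 0.00136).

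Tlr8, a receptor of the RNA-sensing group, was at 298, 234, 132, 158 and 138 in the WT saline lungs and at 216, 200.3, 122, 156 and 165 in the Fat-1 saline lungs. Its lowest, median and highest values were 213, 392 and 792 in WT dust lungs and 215, 349 and 459 in Fat-1 dust lungs. Of the dust lungs 9 of 13 were above every saline lung. Tlr8 had the smallest rise of the 4 receptors that rose, 0.99 on the log2 scale (SE 0.187, limma adjusted p = 3.50e-04), with means of 416 ± 196 in dust and 182 ± 55.1 in saline. With median centring it was 0.47 (adjusted p = 0.0112).

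Tlr9, the CpG DNA receptor, was at 20, 64.8, 56.8, 49.1 and 61.1 in the WT saline lungs and at 73.2, 57.2, 20, 44.7 and 48.6 in the Fat-1 saline lungs. In WT dust lungs the lowest, median and highest values were 64.0, 184 and 239, and in Fat-1 dust lungs 95.9, 120.3 and 206. Of the dust lungs, 12 of 13 were above every saline lung, WT female dust 2 of the second day again being the exception. The means were 148 ± 57.0 in dust and 49.5 ± 17.7 in saline, and the log2 difference was 1.55 (SE 0.256, limma adjusted p = 1.11e-04). The saline lungs at 20 were at the floor and had the highest scale factors, so their true level is only bounded, and with a common floor the difference was 0.72 (adjusted p = 0.00474). When those lungs were left out and a common floor was set at the next highest level, it was 1.23 (adjusted p = 0.00189), an alternative chosen after the data had been seen.

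Tlr13, the receptor for bacterial ribosomal RNA, was at 84.3, 98.6, 65.8, 71.6 and 91.7 in the WT saline lungs and at 112, 57.2, 101, 116 and 108 in the Fat-1 saline lungs. The lowest, median and highest values were 130, 438 and 691 in WT dust lungs and 155, 257 and 376 in Fat-1 dust lungs. All 13 dust lungs were above all 10 saline lungs, as was so or the reverse for 26 of the 711 genes (3.66%). The means were 339.5 ± 186 in dust and 90.6 ± 20.2 in saline, a log2 difference of 1.73 (SE 0.283, limma adjusted p = 1.01e-04). It was 1.22 with median centring and 1.62 with a common floor.

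**Figure D1:**
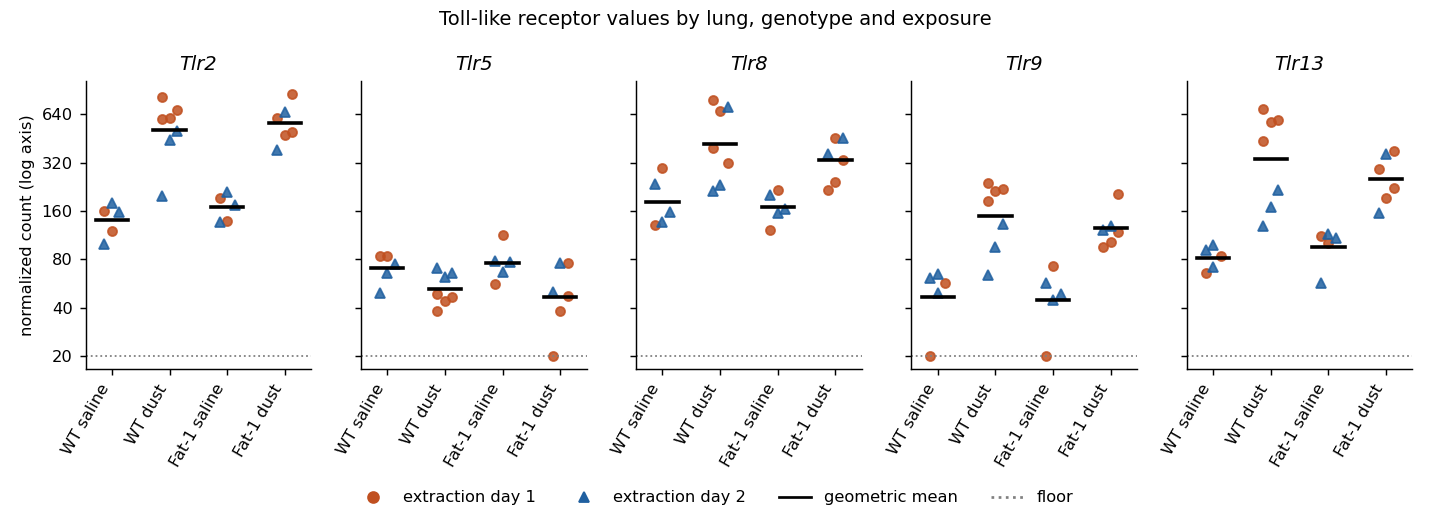
Normalized counts of the 5 receptor genes in each of the 23 lungs on a log axis, by genotype and exposure. Circles are lungs of the first extraction day and triangles of the second, bars are geometric means, and the dotted line is the floor of 20. Tlr13 in dust starts at 130, above the highest saline lung at 116, while Tlr5 dust and saline lungs overlap.

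Where both genes were above the floor, a ratio of receptors within a lung does not depend on that lung's scale factor, and ratios are given as a description with no test. In 3 lungs a gene was at the floor, Tlr5 in 1 dust lung and Tlr9 in 2 saline lungs, and there the ratio is only bounded. The log2 ratio of Tlr5 to Tlr2 was -1.07 ± 0.338 in saline (SD, n = 10, range -1.66 to -0.51) and -3.26 ± 0.786 in dust (n = 12 lungs above the floor, range -4.22 to -1.68). Those 12 dust lungs were below all 10 saline lungs, and with the lung at the floor set to its bound all 13 were. With floor values kept at 20, the same complete separation downwards was found for 87 of the 710 other genes set over Tlr2 (12.3%). The ratio of Tlr5 to Tlr13 also separated the exposures fully, with or without that bound, as did 28.7% of genes set over Tlr13. The ratio of Tlr8 to Tlr2 was 0.19 ± 0.594 in saline and -0.50 ± 0.660 in dust, with 7 of 13 dust lungs below all saline lungs. For Tlr9 over Tlr2 it was -1.45 ± 0.489 in the 8 saline lungs above the floor and -1.96 ± 0.405 in dust (n = 13), with 4 of 13 dust lungs below those 8. That difference of -0.50 is -0.58 with the saline lungs at the floor set to their bound and -0.21 with them kept at 20, so its size is not settled. Tlr13 over Tlr2 overlapped between exposures and differed by -0.05 on average. Set against Tlr2, the mean of Tlr5 was lower in dust by 2.18 over the lungs above the floor, and that of Tlr8 by 0.69. Tlr13 over Tlr8 was 0.64 higher in dust, with 7 of 13 dust lungs above all saline lungs.

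**Figure D2:**
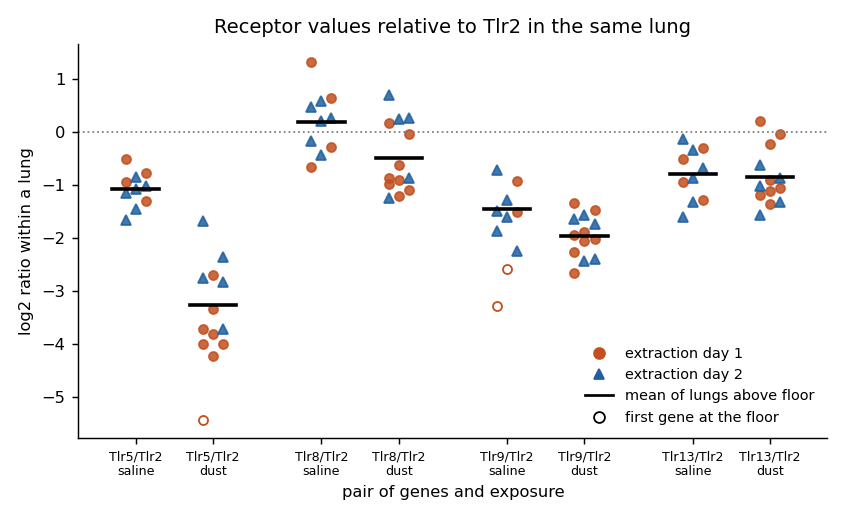
Log2 ratio of Tlr5, Tlr8, Tlr9 and Tlr13 to Tlr2 within each lung, for saline and dust lungs, with symbols by extraction day. Open symbols are lungs with the first gene at the floor of 20, left out of the mean bars. The Tlr5 ratio had a mean of -1.07 in saline and -3.26 in dust without overlap, and the Tlr9 and Tlr13 ratios overlap between the exposures.

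Promoter sequences of 300 bases, from 250 bases before the start site to 50 after it, are shown for 4 receptors. Of the surface pair, Tlr2 was called higher and Tlr5 lower, a Tlr5 call kept under 10 of 14 alternatives. Tlr9 and Tlr13 rose with Tlr2, as did Tlr8, which is not printed. The sequences are from RefSeq on GRCm38.p6, are written 5′ to 3′ on the gene's strand, and 5 of 5 receptors matched. Both strands were searched for NF-kappa-B sites (by its consensus), the PU.1 core GAGGAAG, the AP-1 site TGANTCA, the Sp1 site GGGCGG and the TATA box TATAAA, and capitals mark every match. The Tlr2 promoter is chr3:83841559-83841858 (minus strand), that of Tlr5 chr1:182954538-182954837 (plus strand), that of Tlr9 chr9:106222348-106222647 (plus strand) and that of Tlr13 chrX:106143025-106143324 (plus strand).
Tlr2: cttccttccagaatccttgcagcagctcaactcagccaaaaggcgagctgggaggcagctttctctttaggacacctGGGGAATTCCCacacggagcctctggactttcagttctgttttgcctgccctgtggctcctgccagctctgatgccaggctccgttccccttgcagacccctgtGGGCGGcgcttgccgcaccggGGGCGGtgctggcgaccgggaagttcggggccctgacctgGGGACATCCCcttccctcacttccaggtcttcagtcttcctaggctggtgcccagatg
Tlr5: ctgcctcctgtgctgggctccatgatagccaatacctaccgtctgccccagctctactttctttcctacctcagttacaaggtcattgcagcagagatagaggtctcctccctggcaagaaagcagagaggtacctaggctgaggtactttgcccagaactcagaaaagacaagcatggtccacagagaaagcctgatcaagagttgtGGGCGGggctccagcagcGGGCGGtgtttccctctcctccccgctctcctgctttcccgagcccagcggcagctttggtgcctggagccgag
Tlr9: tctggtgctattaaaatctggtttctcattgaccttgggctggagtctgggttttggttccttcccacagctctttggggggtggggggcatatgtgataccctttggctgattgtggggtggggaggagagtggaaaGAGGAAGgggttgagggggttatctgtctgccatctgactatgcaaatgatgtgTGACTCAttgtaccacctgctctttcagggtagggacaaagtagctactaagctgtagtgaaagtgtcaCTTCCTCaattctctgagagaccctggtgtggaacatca
Tlr13: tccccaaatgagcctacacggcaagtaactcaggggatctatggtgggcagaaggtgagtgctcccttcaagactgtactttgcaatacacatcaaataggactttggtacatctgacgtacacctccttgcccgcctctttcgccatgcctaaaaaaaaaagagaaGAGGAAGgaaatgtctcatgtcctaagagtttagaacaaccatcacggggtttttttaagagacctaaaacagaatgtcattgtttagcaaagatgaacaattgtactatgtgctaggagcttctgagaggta

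Counted from the start site as 0, the Tlr2 promoter held overlapping NF-kappa-B matches between -173 and -163 and a further match from -8 to 1. Of 32851 promoters of this length, 4.51% held such a match, and Tlr2 alone did among the 5 receptors. Both surface receptors held a pair of Sp1 letters, from -69 and -48 in Tlr2 and from -42 and -24 in Tlr5. Of all promoters 35.7% hold these letters at least once, and the share with a pair was not counted. GAGGAAG was in Tlr13 from -83 and in Tlr9 from -112 and, on the other strand, from 11, against 13.6% of all promoters. Tlr9 also held TGACTCA from -58 (7.81% of all promoters hold the AP-1 letters). The Tlr8 promoter, which is not printed, held TATAAA from -89 with an overlapping match on the other strand (13.6% of all promoters) and had a GC share of 32.3%, against 62.0% for Tlr2 and a median of 52.7% over all promoters. A match of letters is no evidence that a factor was bound.

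The other 7 receptor genes on the panel put these changes in context. Of them 5 were higher in dust and 0 lower, against 43.3% higher and 9.99% lower over all genes tested. Their median log2 difference was 0.652 against 0.257 over all genes. Tlr1 and Tlr6, the partners of Tlr2, were higher by 1.58 (adjusted p = 6.18e-04) and 0.95 (adjusted p = 0.00608), or by 0.46 (adjusted p = 0.0451) and 0.49 (adjusted p = 0.0276) with a common floor. Tlr7, an RNA receptor related to Tlr8, was higher by 1.13 (adjusted p = 8.94e-04), and Tlr4, the lipopolysaccharide receptor, by 0.65 (adjusted p = 1.68e-04). Tlr11, which recognises profilin, was higher by 0.56 with 11 of 23 lungs at the floor, and 0.00 with a common floor. Tlr3, the receptor for double-stranded RNA, was at -0.31 (adjusted p = 0.158), and Tlr12 was at the floor in 22 lungs. Median centring left 2 of the 7 higher, Tlr1 and Tlr7, and put 2 lower, Tlr3 (-0.82) and Tlr12, while Tlr4 was at 0.14 (adjusted p = 0.270) and Tlr6 at 0.43 (adjusted p = 0.0948). The Tlr12 fall comes from centring floor values, as Tlr12 was at 0.01 before. Tlr5 was the single receptor of the 12 called lower on the deposited scale, and on the housekeeping scale Tlr3 was called lower too (-0.45, adjusted p = 0.0499).

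**Figure D3:**
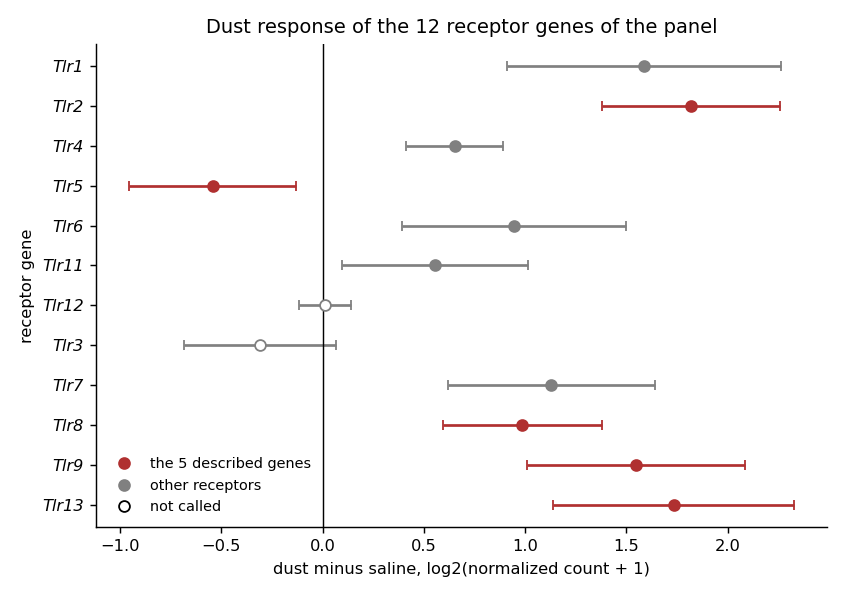
Dust minus saline on the log2 scale for the 12 receptor genes, with 95% confidence intervals from limma over 23 lungs. Filled points were called at an adjusted p under 0.05. Tlr2 is highest at 1.82, Tlr5 lies below 0 at -0.54, and Tlr3 and Tlr12 were not called.

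For the gene lists that follow, the shares over all genes tested were 43.3% higher and 9.99% lower. With median centring 170 of the 711 genes were higher and 301 lower. The lists were not tested against these shares. Among the co-receptors, 2 of 3 rose and 1 fell. Cd14, which hands lipopolysaccharide and lipoproteins to the receptors, was 2.15 higher (adjusted p = 1.24e-04) and Itgam, the integrin CD11b, 2.09 higher (adjusted p = 5.74e-05). Cd36, a scavenger receptor that helps the Tlr2 and Tlr6 pair, fell by 0.72 (adjusted p = 0.00424). Of 5 adaptors and kinases 3 rose and 0 fell, among them Myd88 by 0.84 (adjusted p = 6.82e-04), Btk by 0.97 and Syk by 1.47, while Traf6 was at -0.09 and Ripk2 at 0.05. With median centring 2 of the 5 were higher and 1 was lower, and Myd88 was at 0.32 (adjusted p = 0.0948). Of 8 transcription factors 5 rose and 1 fell (median 0.441). Irf5 was 1.22 higher, Irf7 0.96 and Nfkb1 0.54, and Jun, a part of AP-1, fell by 0.38. With median centring 1 of the 8 was higher and 3 were lower.

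Against 43.3% of all genes higher and 9.99% lower, 7 of 8 genes listed as inhibitors of the pathway rose and 0 fell (median 0.756). They were led by Socs3 at 1.61 and Tnfaip3, the ubiquitin-editing brake on NF-kappa-B, at 1.495 (adjusted p = 1.52e-04). Of the other members called, Nfkbiz was at 0.66 and Nfkbia, which holds NF-kappa-B in the cytoplasm, at 0.72, and Lgals3, Cd180 and Socs1 lay at 0.97, 0.77 and 0.74. With median centring 2 of the 8 were higher and 1 was lower. The list is a label, and whether its members inhibited the pathway here was not measured. Of the 12 target genes that were tested, 9 were higher and 0 lower (median 1.95). The chemokine Ccl3 was 3.14 higher (adjusted p = 4.96e-05), the cytokine Il1b 2.95, Cxcl2 2.68 and Tnf 2.28. The targets Ptgs2 at 0.09, Nos2 at -0.02 and Ifnb1 at -0.43 were not called. With a common floor 6 of the 12 were called higher, and with median centring 8 were higher and 2 lower. Of all 711 genes, 268 were higher and 71 lower with a common floor, and 170 and 301 with median centring.

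Marker genes of the cells that carry these receptors were counted beside the shares of all genes, 43.3% higher and 9.99% lower. With median centring 170 of 711 genes were higher and 301 lower, and with a common floor 268 and 71. The marker lists were not tested against these shares. All 9 markers of monocytes and interstitial macrophages were higher in dust, on every scale tried, and their summed level was 2520 to 3734 in saline lungs and 3715 to 20310 in dust lungs. Neutrophil markers rose in 4 of 7, although Ly6g was at the floor in 19 lungs and Mpo in 22. With median centring 2 others were lower, Mpo and Camp, whose values were mostly at the floor and are moved by the centring. The neutrophil sums, mostly S100a8 and S100a9, were 1502 to 3396 in saline and 1478 to 40760 in dust. Alveolar macrophage markers rose in 5 of 7, or 3 with median centring, and Fabp4 and Pparg were not called. Their sums of 6754 to 20660 in saline and 6279 to 40580 in dust were mostly Chil3, with means of 8447 and 21360. Conventional dendritic cell markers rose in 3 of 4, or 0 with a common floor, with sums of 116 to 217 in saline and 143 to 282 in dust. B cell markers rose in 1 of 3, or 0 with a common floor (257 to 536 in saline, 203 to 850 in dust). The T cell marker Cd28 was higher by 0.59, or by 0.02 with a common floor, and the plasmacytoid marker Ccr9 was at 0.00. Epithelial markers rose in 1 of 2, with 0 higher and 1 lower after median centring (sums, mostly Lamp3, of 7049 to 11530 in saline and 8120 to 12950 in dust). The endothelial markers Cdh5, Tek and Thbd, summing to 7065 to 9610 in saline and 1837 to 7696 in dust, were lower in 3 of 3. In whole tissue a change in the number of cells of a type and a change of RNA per cell cannot be told apart, and the part of these markers in the receptor differences was not tested.

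Over the 23 lungs, the genes nearest to each receptor were found by the root mean square difference of log2 values centred per gene, among 646 genes. For Tlr2 they were Fcgr3, an immunoglobulin G receptor (0.257), Olr1, a receptor for oxidised lipoprotein (0.297), and Malt1, a protease of NF-kappa-B signalling (0.316). For Tlr13 they were Selplg, the selectin ligand (0.332), Itgam (0.342) and Tyrobp, an adaptor of myeloid receptors (0.366). For Tlr9 they were Was, an actin regulator of blood cells (0.336), Itga5 (0.361) and the cytokine Lif (0.424). For Tlr8 they were Apoe (0.359) and the lysosomal genes Laptm5 and Man2b1 (both 0.395). For Tlr5 they were Lrp5, a Wnt co-receptor (0.289), Tlr3 (0.300) and the scaffold gene Cnksr1 (0.301).

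The next comparisons asked whether genotype changed the response. In WT lungs Tlr2 rose by 1.88 (limma adjusted p = 5.70e-04), Tlr8 by 1.05 (0.00588), Tlr9 by 1.72 (0.00191) and Tlr13 by 2.03 (0.00153), and Tlr5 was at -0.44 (adjusted p = 0.225), where 251 of 711 genes were called (35.3%). In Fat-1 lungs Tlr2 rose by 1.75 (limma adjusted p = 0.00104), Tlr8 by 0.92 (0.0146), Tlr9 by 1.37 (0.00966) and Tlr13 by 1.44 (0.0127), and Tlr5 was at -0.65 (adjusted p = 0.0768), where 271 were called (38.1%). Without Fat-1 female saline 1 of the second day, Tlr13 in Fat-1 was at 1.20 (adjusted p = 0.0733) and Tlr8 at 0.90 (adjusted p = 0.0514). With median centring Tlr8 was at 0.52 in WT (adjusted p = 0.0516) and at 0.42 in Fat-1 (adjusted p = 0.117), and with a common floor Tlr9 in Fat-1 was at 0.56 (adjusted p = 0.113).

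The difference of the responses itself was not called for any of the 5 receptors (limma adjusted p = 0.999 for each). The Fat-1 response minus the WT response was -0.13 for Tlr2, -0.21 for Tlr5, -0.13 for Tlr8, -0.36 for Tlr9 and -0.60 for Tlr13. Its 95% interval for Tlr13 ran from -1.79 to 0.59, so differences up to those sizes were not excluded with these numbers of lungs. Over all genes limma called 0 (0.00%), with 21 at an unadjusted p under 0.05. A further fit left out 3 lungs of doubtful quality or standing. They were Fat-1 female dust 2 of the first day, and WT female saline 1 and WT female dust 2 of the second day. No rule for choosing them is given here. WT female dust 2 had no scanner message but the lowest Tlr2, Tlr9 and Tlr13 of the dust lungs, so leaving it out is no check of quality. Genotype calls from that fit of 8 groups are not given, since WT female saline then rests on a single lung. Between genotypes after dust 0 genes were called (0.00%, 22 at an unadjusted p under 0.05), with Tlr13 at -0.43 and Tlr8 at -0.28 in Fat-1. The WT dust lungs were the more spread out of the groups for Tlr13, from 130 to 691 against 155 to 376 in Fat-1. With weights for each lung's noise 97 genes were called, among them Tlr8 at -0.77 (adjusted p = 0.00607) and Tlr13 at -0.94 (adjusted p = 0.0192), both lower in Fat-1. Between genotypes after saline limma called 0 genes (0.00%, 10 at an unadjusted p under 0.05), and the 5 receptors differed by -0.15 to 0.24. Without the same 3 lungs, the single WT female saline lung left had 232 genes at the floor, which in it sits at 64.82. Saline calls from that fit are not given either.

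Ordered by mean log2 level over the 8 groups of genotype, sex and exposure, Tlr2 and Tlr13 had all 4 saline groups below all 4 dust groups, as had Tlr9. For Tlr2 the step from the highest saline group (Fat-1 male) to the lowest dust group (WT female) was 1.35, more than the SD of either, and no other neighbours differed by more than their larger SD. For Tlr13 the same step, from Fat-1 male saline to Fat-1 male dust, was 1.20, and that between WT female and Fat-1 male saline was 0.24 (larger SD 0.158). For Tlr9 it was 0.81, from Fat-1 female saline to Fat-1 male dust, and other neighbours lay within their SD. For Tlr5 all 4 dust groups were below all 4 saline groups but no neighbours differed by more than their SD. For Tlr8 the order followed sex within exposure, with both male saline groups lowest, then both female saline groups, then both male dust groups, then both female dust groups, and WT female saline differed from Fat-1 male dust by 0.01.

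Tlr8 values lay higher in females than in males in both exposures, without passing the threshold in either. In saline the 4 female lungs were at 298, 234, 216 and 200.3, and the 6 male lungs had a lowest, median and highest value of 122, 147 and 165. No female saline lung overlapped with a male one, which was so in either direction for 5 of 711 genes (0.703%). In dust the lowest, median and highest values were 234, 459 and 792 in 7 females and 213, 279.8 and 392 in 6 males, and 5 of 7 female lungs were above every male lung. The log2 difference, female minus male, was 0.70 after saline (SE 0.283, limma adjusted p = 1.00) and 0.75 after dust (SE 0.245, limma adjusted p = 0.994). In all, 0 genes were called in saline (0.00%, 14 at an unadjusted p under 0.05) or in dust (0.00%, 23 at an unadjusted p under 0.05). In dust, Tlr8 was called without WT female dust 2 of the second day (0.95, adjusted p = 0.0197) and with lung weights (0.80, adjusted p = 0.0111). Without the 3 lungs of doubtful standing, WT female saline rests on a single lung with 232 genes at the floor, so saline calls from that fit are not given.

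Over both exposures together, a comparison chosen after the data had been seen, Tlr8 differed by 0.73 (SE 0.174, limma adjusted p = 0.294). Here too 0 genes were called (0.00%, 16 at an unadjusted p under 0.05), and Tlr8 had the smallest p of the 711 genes. Of 7 alternatives 3 called it, median centring (0.72, limma adjusted p = 0.0341), lung weights (0.71, limma adjusted p = 0.00444) and leaving out the 3 lungs of doubtful standing (0.85, limma adjusted p = 0.0118). It was also called without WT female dust 2 of the second day (0.84, limma adjusted p = 0.00275), the only one of the 23 lungs whose removal did so. That lung is among the 3 of doubtful standing, so leaving out the 3 is no separate check. The adjusted p was 0.397 with a common floor, 0.0796 on the housekeeping scale, 0.243 without the lungs with the saturation message and 0.520 with the sexes given by the sample characteristics. By the characteristics the saline lungs did not overlap either, at 165 to 298 in 5 females and 122 to 158 in 5 males. The difference of the dust responses between the sexes was not called (Tlr8 0.05, limma adjusted p = 0.998, 95% interval -0.73 to 0.84), and 0 genes were called (0.00%, 14 at an unadjusted p under 0.05).

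The other receptors were closer between the sexes, with Tlr2 at -0.14, Tlr5 at -0.18, Tlr9 at 0.09 and Tlr13 at -0.13 over both exposures. Tlr8 and Tlr13 are both X-linked. Of 17 X-linked genes tested, 11 were higher in females and the median was 0.03. Tlr7, the closest relative of Tlr8, was at 0.48, and no X-linked gene was called. Sums of markers for monocytes and interstitial macrophages overlapped between the sexes, at 2825 to 3734 in female and 2520 to 3696 in male saline lungs and at 3715 to 20310 and 6282 to 13880 in dust. Other marker lists are not compared between the sexes here, and an overlap of sums does not show that cell numbers were alike. The part of these markers in the Tlr8 difference was not tested.

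**Figure D4:**
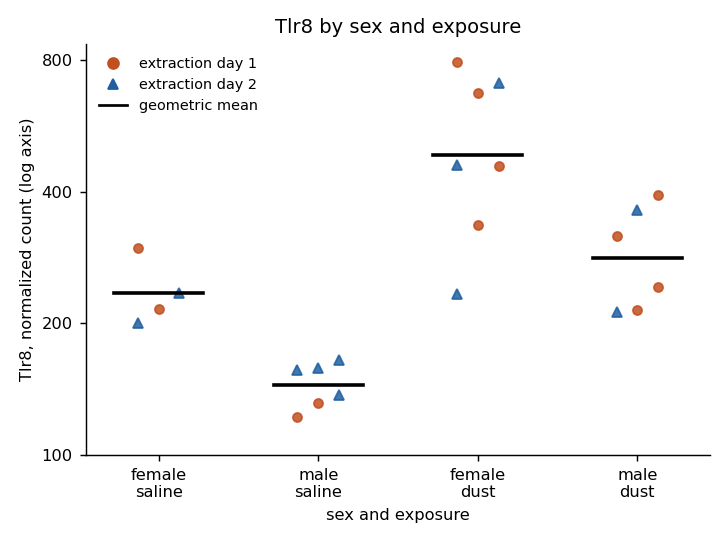
Normalized counts of Tlr8 on a log axis for female and male lungs of each exposure, with symbols by extraction day and bars at the geometric mean. The 4 female saline lungs start at 200.3 and the 6 male saline lungs end at 165, while the dust lungs overlap from 234 to 392.

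Receptor responses were also set side by side for the extraction days, which are those of the code on the extract. On the first day Tlr2 rose by 2.06 (limma adjusted p = 2.57e-06), Tlr8 by 1.11 (9.96e-04), Tlr9 by 2.14 (2.33e-05) and Tlr13 by 2.10 (2.82e-05), and Tlr5 fell by 0.93 (0.00242), with 53.2% of all genes called. On the second day Tlr2 rose by 1.43 (limma adjusted p = 0.00245), Tlr13 by 1.12 (0.0308) and Tlr8 by 0.83 (0.0390). Tlr9 was at 0.89 (adjusted p = 0.0764) and Tlr5 at -0.01 (adjusted p = 0.982) on that day, with 13.2% of all genes called. The second-day calls of Tlr13 and Tlr8 were lost without Fat-1 male dust 1 of that day, one of the lungs with the saturation message (0.78 and 0.61, adjusted p = 0.226 and 0.252). They were also lost without either of WT male saline 1 and 2, Fat-1 female saline 1 or WT female dust 1 of that day, with Tlr13 between 0.99 and 1.11 and Tlr8 between 0.69 and 0.83. Tlr8 was further lost without Fat-1 female dust 1 or WT female saline 1 (0.78 each), and both missed the threshold with a common floor (Tlr13 0.99, Tlr8 0.83) and with median centring (Tlr13 0.79, adjusted p = 0.0554, and Tlr8 0.49, adjusted p = 0.129). Tlr9 passed it on that day with lung weights (0.83, adjusted p = 0.0261), with the groups of the characteristics (0.96, adjusted p = 0.0487), without the 3 lungs of doubtful standing (1.09, adjusted p = 0.0289), without WT female dust 2 of that day (1.09, adjusted p = 0.0203), without Fat-1 female saline 1 of the first day (0.91, adjusted p = 0.0410) and with a common floor without the 2 lungs of the highest scale factor (0.86, adjusted p = 0.0353). On the first day, with a common floor, the Tlr5 difference was -0.11 (adjusted p = 0.0979) and that of Tlr9, for which 2 of 4 saline lungs were at the floor, was 0.94 (adjusted p = 0.00133).

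The difference between the days was called for none of the 5 in the test of that difference, which called 12 of 711 genes (1.69%). It was 0.63 for Tlr2, 0.29 for Tlr8, 1.26 for Tlr9 (95% interval 0.29 to 2.22, limma adjusted p = 0.128), 0.98 for Tlr13 and -0.92 for Tlr5 (95% interval -1.62 to -0.22, limma adjusted p = 0.128). Without Fat-1 male dust 1 of the second day, Tlr5 at -1.09, Tlr9 at 1.41 and Tlr13 at 1.32 passed the threshold (limma adjusted p = 0.0337, 0.0456 and 0.0383). Without Fat-1 female saline 1 of the first day, Tlr9 passed it at 1.62 (limma adjusted p = 0.0390), and with lung weights Tlr5 did at -0.84 (limma adjusted p = 0.0229). With a common floor the differences shrank to 0.60 for Tlr9 (limma adjusted p = 0.292) and -0.12 for Tlr5 (limma adjusted p = 0.352), and Tlr9 was at 0.46 when the 2 lungs of the highest scale factor were left out as well. Both saline lungs at the Tlr9 floor and the dust lung at the Tlr5 floor were of the first day.

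Among dust lungs alone, Tlr13 was higher on the first day, at 423 ± 184 (n = 8) against 207 ± 92.4 (n = 5), a difference of 1.01 (limma adjusted p = 0.0321) where 15.2% of genes were called. That call was lost when any of 8 dust lungs was left out in turn, with values from 0.85 (without WT female dust 2 of the second day, adjusted p = 0.108) to 1.04. Tlr2 was at 0.60 (adjusted p = 0.0784) and Tlr5 at -0.61 (adjusted p = 0.0629) in the same comparison, and both passed the threshold without Fat-1 male dust 1 of the second day (0.78 and -0.77, adjusted p = 0.0204 and 0.0173). Among saline lungs the receptors differed by -0.59 to 0.31, and 1 of 711 genes was called (0.141%). The days held different shares of each group, and which lungs were extracted on which day cannot be told apart from other features of those mice. Day was also nearly the same as cartridge. All but 2 lungs of the first day were on one cartridge, and all but 2 of the second day on the other. With cartridge as a term Tlr2 differed by 0.90 between the days in dust (limma adjusted p = 0.0113). Tlr5, Tlr9 and Tlr13 stayed on the same side of the threshold.

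**Figure D5:**
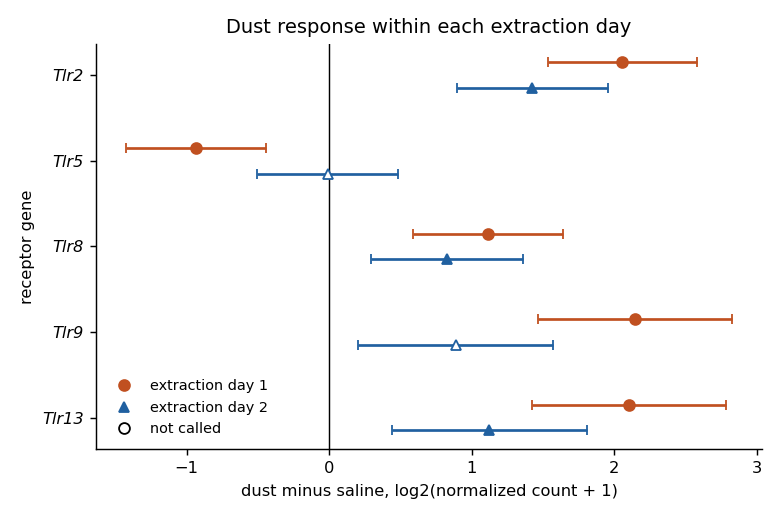
Dust minus saline on the log2 scale for the 5 receptors within the first (circles) and second (triangles) extraction day, with 95% confidence intervals from limma; open symbols were not called. Tlr5 is at -0.93 on the first day and -0.01 on the second, and Tlr9 at 2.14 and 0.89.

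WT female dust 2 of the second day had the lowest Tlr2 (199), Tlr9 (64.0) and Tlr13 (130) of the 13 dust lungs and the third lowest Tlr8 (234), while its Tlr5 (62.1) ranked 9 of 13 from below. Without it the dust differences were 1.92 for Tlr2, 1.09 for Tlr8, 1.64 for Tlr9, 1.84 for Tlr13 and -0.57 for Tlr5, and each kept its call. WT female dust 2 of the first day stood at the other end, with the highest Tlr9 (239) and Tlr13 (691) of the dust lungs and the lowest Tlr5 among dust lungs above the floor (37.9). Fat-1 female dust 2 of the first day had the highest Tlr2 (856), and its Tlr5 was at the floor, which in that lung bounds it only at 47.28, so that its place among the dust lungs is not known.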

How the data were processed

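Left lungs of 23 mice were measured on an nCounter mouse myeloid panel. The deposited values are a signal: probe counts that the authors scaled by a factor per lung, with counts under 20 set to 20, per the file headers and the values. The sources used here name neither software nor reference genes for that factor. It was read from the spacing of the values, and 100% of values above the floor were whole multiples of it within 0.1 steps, so counts could be recovered. Because counts under the floor are hidden, no count model was fitted.

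The 5 receptors, the gene lists and the tests were chosen with earlier results of these data known. On log2(value + 1), limma 3.58.1 (R 4.3.3) fitted group means over 8 groups, or over exposure and day with genotype and sex as terms, empirical Bayes moderation and Benjamini-Hochberg adjustment over the 711 genes above the floor in at least 1 lung. Of 754 genes, 43 were at the floor in all lungs. Contrasts average the groups with equal weight, so a log2 difference need not equal the ratio of the means given. Tests are two-sided, the threshold is an adjusted p of 0.05, and each lung is a separate mouse. The scripts were tested on simulated data with independent noise and neither a floor nor lung factors, so effects of those were not covered. Named genes are the 5 receptors in each comparison, up to 4 members of each list with the smallest p and the other members named at most once, and the 3 nearest genes of each receptor among those above the floor in at least 12 lungs. The nearest genes and the order of groups are descriptions. Alternatives were a common floor, a housekeeping scale, median centring, a pseudocount of 20, other filters, day or cartridge as a term, a replicate block, lung weights, groups by the characteristics and left-out lungs. Tables and plots were made in Python 3.11.15 (matplotlib 3.10.9, pandas 2.3.3).

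Same-numbered lungs did not vary together as a rule: over 470 genes, the median correlation of 65 same-numbered pairs was -0.01 (range -0.45 to 0.74). The lungs were therefore treated as unpaired. Deviations were taken from means of 2 to 4 lungs, so this check cannot exclude a shared block.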

Additional observations from a re-analysis of the deposited data

Results flagged for a closer look

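Within the 4 groups of genotype and exposure, 20 sets of values were examined for a lung far from the others, and about 1 in 20 such sets would be picked out by chance. In Fat-1 dust lungs, Tlr9 was highest in Fat-1 female dust 2 of the first day, at 205.65, with the next lung at 129.05 and a gap of 0.698 of the whole range. In Fat-1 saline lungs, Tlr13 was lowest in Fat-1 female saline 1 of the second day, at 57.24, with the next lung at 101.12 and a gap of 0.749 of the range. That saline lung had a Tlr13 count of 36 and is one of those whose removal ended the Tlr5 call and the Tlr13 call in Fat-1 lungs.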

How the results depend on the processing

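Dust minus saline kept its call for Tlr2, Tlr8, Tlr9 and Tlr13 under all 14 alternatives and without each of the 23 lungs in turn. The ranges over alternatives were 1.30 to 2.02, 0.47 to 1.08, 0.72 to 1.78 and 1.22 to 1.90, and over left-out lungs 1.75 to 1.92, 0.93 to 1.09, 1.34 to 1.75 and 1.62 to 1.88. The alternative without the 3 lungs of doubtful standing left WT female saline with a single lung, so its calls are weak. The Tlr5 difference of -0.54 missed the threshold with a common floor (-0.04), with a replicate block (-0.43, adjusted p = 0.123), without the lungs with the saturation message (-0.52) and with a common floor without the 2 lungs of the highest scale factor (-0.31). The latter 2 alternatives were chosen after seeing the data. Over left-out lungs it ran from -0.66 to -0.43 and kept its call in 21 of 23. The common floor removes it by construction, since most values lie under that floor, and the cause of the other losses was not tested. Tlr8 between the sexes over both exposures was called in 3 of 7 alternatives, chosen after seeing the data. These were median centring (0.72), lung weights (0.71) and leaving out the 3 lungs of doubtful standing (0.85). Tlr8 was also called in 1 of 23 with a lung left out (range 0.66 to 0.84). That lung, WT female dust 2 of the second day, is among the 3 of doubtful standing. Tlr9, first day minus second day after saline, turned from -0.59 to 0.21 with a common floor without the lungs of the highest scale factor, which were those at the Tlr9 floor. The replicate block also ended the second-day calls of Tlr13 and Tlr8 (1.10 and 0.77) and the day difference of Tlr13 in dust (1.03, adjusted p = 0.199), and it made Tlr2 pass in that comparison (1.26, adjusted p = 0.0352). Genes called on the second day numbered 94, and 16 to 198 under alternatives. For the difference of the day responses the 12 became 1 to 145, the highest without Fat-1 male dust 1 of the second day, and for the first day against the second in dust the 108 became 6 to 328. In WT the 251 became 97 to 388 and in Fat-1 the 271 fell to 160 with the replicate block. Of 1461 receptor values over comparisons and settings, 1379 kept their direction and side of the threshold, 45 became weaker, 36 stronger and 1 turned. Only comparisons whose main difference was at least its SE entered this count. Differences nearer 0, which turn most easily, were left out, and values not called in either fit count as kept. Depth limits Tlr5 and Tlr9 most, with medians of 37.5 and 57 counts against 240 for Tlr2.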
